A study of Saccharomyces cerevisiae with 24 samples.

Results

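ATO2 (YNR002C) and PUT4 (YOR348C), 2 genes for transporters of the yeast plasma membrane, were followed over all 12 RNA samples of the series. They are 2 of the 6330 probes measured, and each is printed as a single spot on the array. Both were chosen by their difference in signal between the strains, so the levels in V5.TM6*P set beside those in V5 are the values that selected them. That difference is given as a description without a test, while the dependence on glucose within each strain was not used in the choice and was tested.

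V5.TM6*P is a V5 derivative that lacks HXT1 to HXT7, the genes for the main hexose carriers, and carries in their place TM6*, a chimera of the amino-terminal part of Hxt1 and the carboxy-terminal part of Hxt7. V5 is its parent with all these genes, and both strains were made able to grow without uracil by integration of URA3. Both were grown as batch cultures in aerated bioreactors on glucose, in a medium that the labels call both YNB-CSM and a defined minimal medium. The cultures of V5.TM6*P were sampled for RNA when 5.6, 13.5, 25.1, 26.3, 34.8 and 36.5 g/L glucose remained, and those of V5 when 7.4, 10.5, 24.4, 25.5, 35 and 38.4 g/L did. The 6 samples of a strain come from 2 fermentations, to which the labels do not assign them, so the p-values measure the spread between these samples and not between separate cultures. Each strain is 1 construct, and no second V5.TM6*P line was measured.

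Each RNA sample was amplified, labelled with radioactive phosphorus and hybridized to 2 filters, 24 in all. The values here are spot minus background intensities on a log2 scale with the median of each array set to 0, and each level is the mean over both arrays of a sample. A level of 1 is therefore a signal of 2 times the array median, and a change in the total mRNA of a cell would not be seen. The median net intensity of the arrays ranged between 11.4 and 22.9 over a background of 12.1 to 31.5. In 3 arrays, both at 36.5 g/L and the first at 34.8 g/L of V5.TM6*P, the image name held another array code. This was taken as another print lot, although the sample titles give the same code for all arrays. HXT4, one of the deleted genes, averaged -0.58 ± 0.50 in V5.TM6*P and 1.60 ± 0.29 in V5 (SD, n = 6 each), but its probe was identified through its strain ratio and its place in the print order, so it is no independent check of the labels. The number of arrays limits the precision of every value.

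Ato2 is a relative of Ady2, the acetate carrier of the plasma membrane, and takes part in the export of ammonium as colonies age. Put4 is the high-affinity proline permease. Proline is a poor nitrogen source that yeast takes up when ammonium and good amino acids are short, and PUT4 is kept low by these through nitrogen catabolite repression. Inside the cell proline passes to the mitochondrion, where Put1 and Put2 turn it into glutamate in steps that feed electrons to the respiratory chain.

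The upstream elements below are a selection of those that the study lists for these genes, which include further partial matches, and they are shown because regulators of glucose repression and respiration bind such elements. They are descriptions of letters and not of binding, and the share of all promoters that hold them was not computed, since upstream sequences were not used here. Capitals mark the fixed letters of the element. The first of ATO2 is the CCAAT box of the Hap complex, the activator of respiratory genes. The second of ATO2 is a site for Mig1, the glucose repressor. The first of PUT4 is listed as a partial match to another form of the Hap complex site and has no fixed letters marked, and its other 2 have the form of CC and CCG apart by a stretch of any letters, related to the carbon source responsive element bound by Cat8. As listed, those of ATO2 are on the minus strand and the Hap element of PUT4 is on the plus strand, and no strand is given for the other 2.
ATO2, Hap complex: CCAATc
ATO2, Mig1: CCCCgcaa
PUT4, Hap complex, partial match: ttgatagg
PUT4, Cat8-related: CCggcagcCCG
PUT4, Cat8-related: CCatactaCCG

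ATO2 was high in V5.TM6*P at every glucose concentration and low in V5 at every one. In V5.TM6*P its log2 level was 1.37 at 5.6 g/L, 2.08 at 13.5 g/L, 1.56 at 25.1 g/L, 1.36 at 26.3 g/L, 1.54 at 34.8 g/L and 1.14 at 36.5 g/L. In V5 it was -3.10 at 7.4 g/L, -1.25 at 10.5 g/L, -2.32 at 24.4 g/L, -0.93 at 25.5 g/L, -1.24 at 35 g/L and -0.51 at 38.4 g/L. All V5.TM6*P samples lay above the array median and all V5 samples below it, and the lowest V5.TM6*P sample was 1.66 above the highest V5 sample. The mean was 1.51 ± 0.32 in V5.TM6*P and -1.56 ± 0.96 in V5 (SD, n = 6 each), a log2 difference of 3.07, or 8.40-fold.

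PUT4 had the same separation between the strains. In V5.TM6*P its log2 level was 1.36 at 5.6 g/L, 2.20 at 13.5 g/L, 1.33 at 25.1 g/L, 1.11 at 26.3 g/L, 1.79 at 34.8 g/L and 1.73 at 36.5 g/L. In V5 it was -1.10 at 7.4 g/L, -1.85 at 10.5 g/L, -1.06 at 24.4 g/L, -0.97 at 25.5 g/L, -0.40 at 35 g/L and -1.26 at 38.4 g/L. The groups did not overlap, with 1.51 between the lowest V5.TM6*P and the highest V5 sample. The mean was 1.59 ± 0.40 in V5.TM6*P and -1.11 ± 0.47 in V5 (SD, n = 6 each), a log2 difference of 2.70, or 6.48-fold. Among all probes 4.83% had every V5.TM6*P sample above every V5 sample, and nothing is read from this for ATO2 and PUT4, since the strain contrast chose them. Among the 6330 probes the fold of ATO2 was in place 6 and that of PUT4 in place 13, and in the authors' own processed table of the same arrays they were in places 26 and 12.

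**Figure D1:**
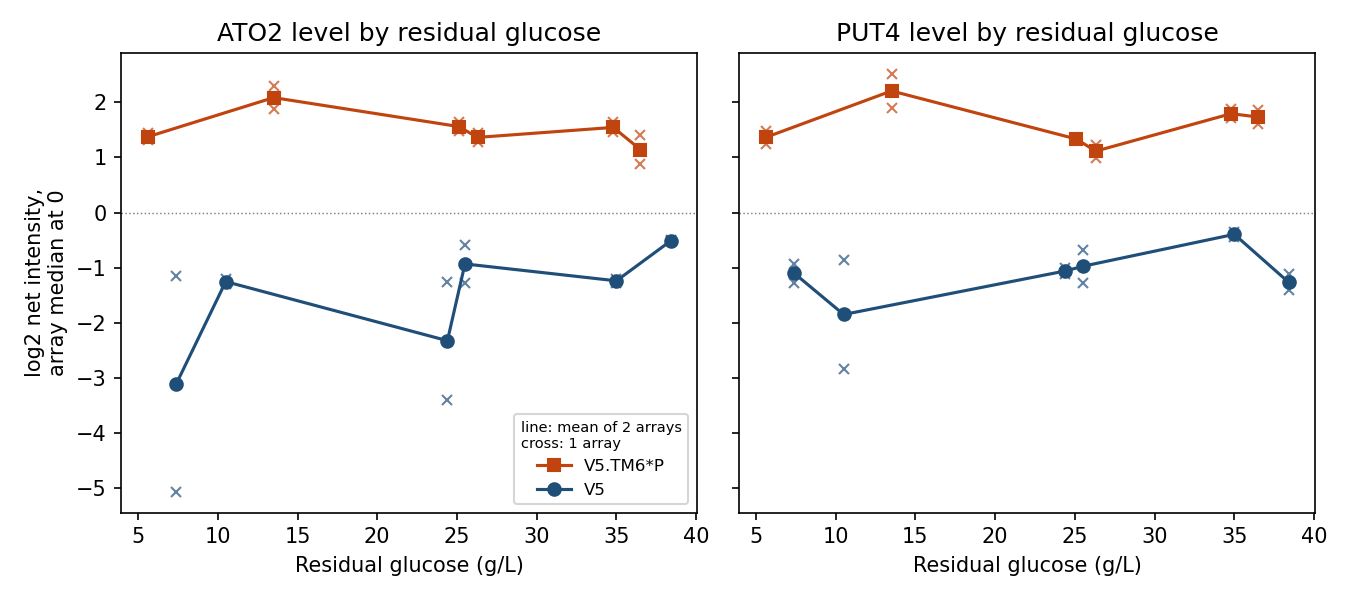
Log2 level of ATO2 and PUT4, with the array median at 0, against residual glucose in g/L. Lines join the mean of 2 arrays for V5.TM6*P (squares) and V5 (circles), and crosses are single arrays. All V5.TM6*P means lie at 1.11 or higher and all V5 means at -0.40 or lower, and the arrays of ATO2 in V5 differ most at 7.4 and 24.4 g/L.

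On the arrays themselves the signals of the 2 genes differed between the strains not only in size but in how well they were measured. The net intensity of the ATO2 spot was 27.4 to 73.9 on the 12 V5.TM6*P arrays, with a median of 42.6, and 0.391 to 12.6 on the 12 V5 arrays, with a median of 7.03. That of the PUT4 spot was 22.4 to 85.9 with a median of 47.3 in V5.TM6*P and 2.49 to 14.8 with a median of 6.75 in V5. In units of the SD of the background pixels around the spot, the ATO2 signal was 12.5 to 22.1 in V5.TM6*P and 0.151 to 4.91 in V5, and the PUT4 signal was 9.56 to 29.2 in V5.TM6*P and 0.781 to 3.82 in V5. So in V5 both transporter genes were close to the limit of what the filters measure. On 5 of the 12 V5 arrays the ATO2 spot, and on 4 the PUT4 spot, was less than 2 SDs above the background, against 0 arrays of V5.TM6*P for both genes.

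The imaging software marked the ATO2 spot as empty on the first V5 array at 24.4 g/L, with a net intensity of 1.41, and on the first at 7.4 g/L, with 0.391. The second arrays of the same RNA samples gave 5.59 and 6.87. The PUT4 spot was marked as empty on the second V5 array at 10.5 g/L, with 2.49, against 6.57 on the first. No spot of either gene was marked on the V5.TM6*P arrays and none was under the floor of 0.1. With the marked spots treated as missing, the log2 difference between the strains was 2.57 for ATO2, or 5.93-fold, and 2.54 for PUT4, or 5.80-fold.

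**Figure D2:**
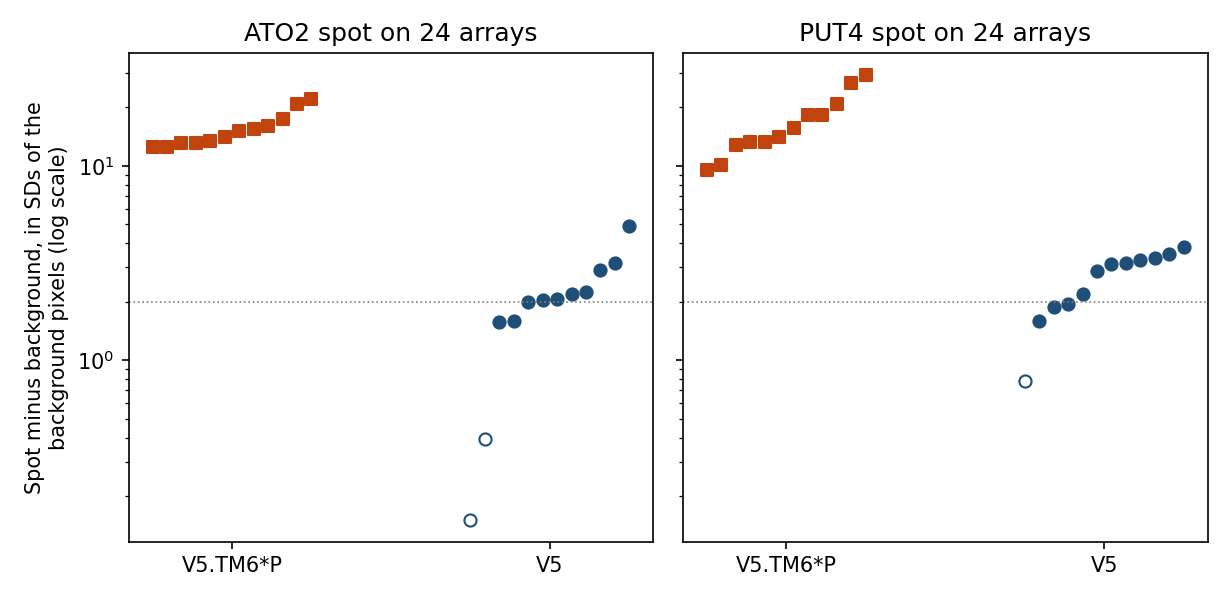
Net intensity of the ATO2 and PUT4 spots on each of the 24 arrays, in SDs of the background pixels (log scale), V5.TM6*P to the left of V5, with the arrays of a strain sorted by value. Open circles are spots marked as empty and the dotted line is at 2 SDs. The V5.TM6*P spots lie at 9.56 or higher and the V5 spots at 4.91 or lower.

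The 2 arrays of an RNA sample agreed to a median of 0.18 for ATO2 and 0.23 for PUT4 (log2 difference) in V5.TM6*P. In V5 the median differences were 0.40 for ATO2 and 0.31 for PUT4, with a highest difference of 3.91 for ATO2 at 7.4 g/L and 1.99 for PUT4 at 10.5 g/L. Over all probes and samples the median difference was 0.42. The SD between arrays of a sample was 0.21 for ATO2 and 0.22 for PUT4 in V5.TM6*P, against 1.30 for ATO2 and 0.62 for PUT4 in V5.

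The levels within a strain were ordered and each step was set against this SD, which covers the measurement only, since no glucose concentration was sampled more than once in a strain. In V5.TM6*P both genes were highest at 13.5 g/L, by 0.52 over the next sample for ATO2 and by 0.41 for PUT4, which was more than the SD between arrays. ATO2 was then ordered 25.1, 34.8, 5.6, 26.3 and 36.5 g/L. Among these, only the last step, of 0.22 between 26.3 and 36.5 g/L, exceeded that SD. PUT4 was ordered 34.8, 36.5, 5.6, 25.1 and 26.3 g/L after 13.5 g/L, and only the step of 0.37 between 36.5 and 5.6 g/L exceeded it. In V5 the order of ATO2 was 38.4, 25.5, 35, 10.5, 24.4 and 7.4 g/L and that of PUT4 was 35, 25.5, 24.4, 7.4, 38.4 and 10.5 g/L. None of the 5 steps of either gene exceeded the SD between arrays. That SD was raised by the samples with a spot marked as empty, so the check could resolve little in V5. Some V5 samples did differ on both arrays. ATO2 gave -0.52 and -0.51 at 38.4 g/L, against -1.20 and -1.28 at 35 g/L. PUT4 gave -0.44 and -0.35 at 35 g/L, against -1.41 and -1.12 at 38.4 g/L.

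Glucose dependence was tested with a line on glucose for each strain, fitted with limma to all 6330 probes with Benjamini-Hochberg adjustment. Neither gene passed the threshold of an adjusted p of 0.05 in either strain. For ATO2 the slope was -0.11 ± 0.21 log2 units per 10 g/L glucose in V5.TM6*P (SE, limma adjusted p = 0.972) and 0.52 ± 0.20 in V5 (adjusted p = 0.325, unadjusted p = 0.0257). The slope in V5.TM6*P minus that in V5 was -0.63 ± 0.29 (adjusted p = 0.626). For PUT4 the slope was 0.0045 ± 0.16 in V5.TM6*P (adjusted p = 1.00) and 0.20 ± 0.15 in V5 (adjusted p = 0.651), with a difference of -0.20 ± 0.22 (adjusted p = 0.844). A positive slope means a higher level at higher glucose. In this fit 0 probes had a called slope in V5.TM6*P (378 at an unadjusted p under 0.05), 1 in V5, which is 0.0158% of those tested (770 at an unadjusted p under 0.05), and 0 had a called difference of slopes (515 at an unadjusted p under 0.05). The SEs leave room for sizeable slopes of both genes, and the ATO2 slope in V5 includes the 2 arrays on which its spot was marked as empty. With marked spots treated as missing that slope was 0.13 (limma adjusted p = 0.699). Without the V5 sample at 7.4 g/L it was 0.23 and without that at 10.5 g/L 0.78. The PUT4 slope in V5 ranged between 0.070, without the sample at 10.5 g/L, and 0.35, without that at 38.4 g/L. It was 0.094 without 35 g/L and 0.33 without 7.4 g/L.

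V5.TM6*P lay above V5 early and late in the cultures, and the size of the difference was not tested between the stages. At the first 2 sampling points, with the most glucose, the mean of ATO2 was 1.34 in V5.TM6*P and -0.88 in V5, a difference of 2.22. At the middle 2 points it was 1.46 in V5.TM6*P and -1.63 in V5, a difference of 3.09, and at the last 2 points 1.73 in V5.TM6*P and -2.18 in V5, a difference of 3.90. PUT4 averaged 1.76 in V5.TM6*P and -0.83 in V5 at the first 2 points, 1.22 in V5.TM6*P and -1.02 in V5 at the middle 2, and 1.78 in V5.TM6*P and -1.47 in V5 at the last 2, with differences of 2.59, 2.24 and 3.26. When the 2 samples with the least glucose were left out of both strains, the difference was 2.65 for ATO2, or 6.29-fold, and 2.41 for PUT4, or 5.33-fold. At the last 2 points the ATO2 spot was under 2 background SDs on all 4 V5 arrays, against 0 of 4 at the first 2. With spots under 2 background SDs raised to that level, a lower bound for such samples that was chosen after seeing the data, the ATO2 difference was 2.22, 2.50 and 2.80 at the first, middle and last 2 points and 2.51 over all points. That of PUT4 was then 2.58, 2.22 and 2.84 at these points and 2.54 over all points. The authors' own processed values of the same arrays gave no widening for ATO2, and for PUT4 the smallest difference at the last 2 points.

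Those processed values, deposited as a separate table, also held V5.TM6*P above V5 in both genes but gave another course within V5. From the table the log2 level of ATO2 averaged 1.41 ± 0.34 in V5.TM6*P and -0.53 ± 0.38 in V5 (SD, n = 6 each), a log2 difference of 1.94, or 3.83-fold, which is less than the 8.40-fold from the scanner values. PUT4 averaged 1.30 ± 0.42 in V5.TM6*P and -1.24 ± 0.35 in V5 (SD, n = 6 each), a difference of 2.54, or 5.82-fold. The differences of ATO2 at the first, middle and last 2 points were 2.06, 1.95 and 1.81 in the table. Those of PUT4 were 2.89, 2.47 and 2.26. Across the 6 V5.TM6*P samples the scanner and table levels correlated at 0.82 for ATO2 and 0.94 for PUT4, while across the 6 V5 samples the correlations were -0.36 and -0.27. The slope of ATO2 in V5 had the opposite sign in the table, -0.25 ± 0.10 per 10 g/L (SE, limma adjusted p = 0.299), as had that of PUT4, -0.15 ± 0.13 (adjusted p = 0.695). How the authors scaled the table is not given in the sources used here. The direction of the glucose slope in V5 thus depended on the source for both genes, and so did the size of the ATO2 difference between the strains. That both sources gave the same direction of the strain difference is no support for it, since the genes were chosen by it.

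**Figure D3:**
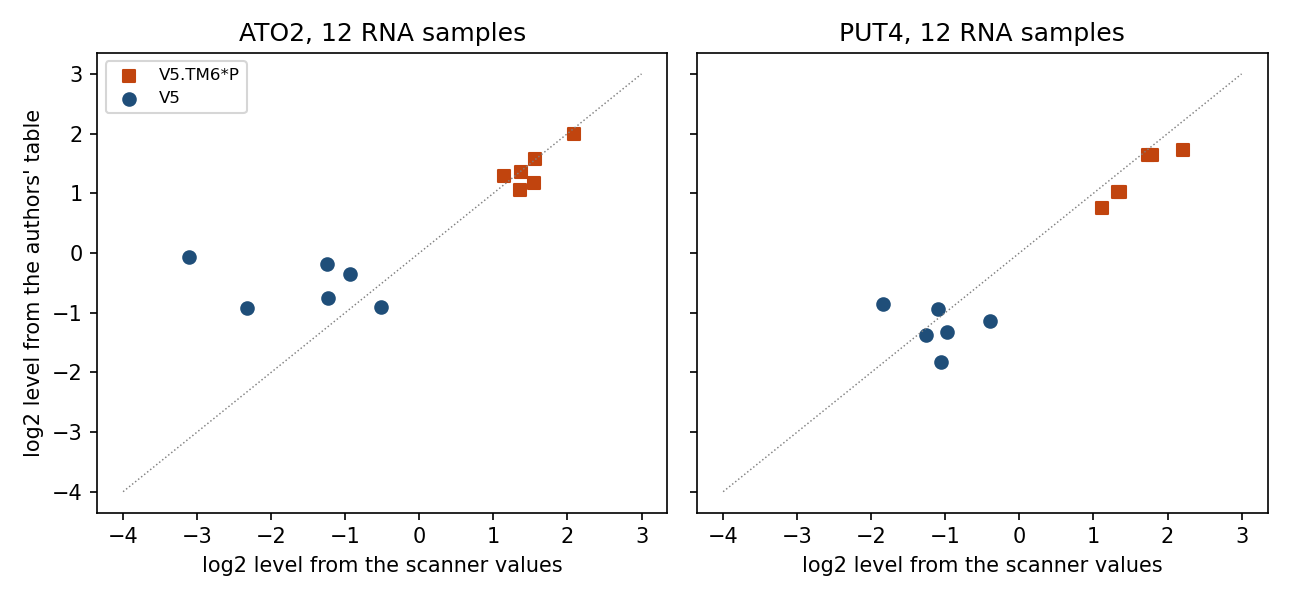
Log2 level of ATO2 and PUT4 in the authors' table (vertical) against the level from the scanner values (horizontal), 1 point per RNA sample, V5.TM6*P as squares and V5 as circles, with the line of equal values dotted. The squares rise along the line (correlations of 0.82 and 0.94), and the circles have no common order in both sources (-0.36 and -0.27).

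Signal from a neighbouring spot can reach the next one on a filter, so the 8 spots around each gene were read too. Around PUT4 their strain differences ranged from -0.44 to 0.38, against 2.70 at the PUT4 spot. Around ATO2 they ranged from -0.66 to 1.23, against 3.07 at the ATO2 spot. The highest of these belongs to the brightest neighbour, YPR126C, with a mean of 3.09 in V5.TM6*P and 1.86 in V5 and a correlation of 0.67 with ATO2 over the 12 samples, and its part in the ATO2 signal was not tested. The other neighbours of ATO2 differed by at most 0.12 in the direction of ATO2.

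Over the 12 samples the levels of ATO2 and PUT4 correlated at 0.89, and after the mean of each strain was removed at 0.087. Within V5.TM6*P the correlation was 0.63 and within V5 -0.055 (6 samples each), against 0.41 and 0.78 in the authors' table. The correlation within V5 thus differed between the sources, while that within V5.TM6*P was positive in both, and both genes were highest at 13.5 g/L in V5.TM6*P in both sources. These correlations are descriptions, and the points share the 2 strains and the arrays.

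Correlations over all 12 samples include the strain difference that chose ATO2 and PUT4, and most names come from tables of that difference. The lists below are therefore descriptions only. For ATO2 the 10 probes with the most similar pattern, 9 of which have a name, correlated with it at 0.91 to 0.96. They were CLD1, for a cardiolipin lipase of mitochondria, THI4, of thiamine synthesis, HXT15, for a hexose carrier outside the deleted set, SFC1, for the mitochondrial succinate-fumarate carrier, RPH1, for a histone demethylase, FBP1, for the gluconeogenic fructose bisphosphatase, DCG1, MRF1, for a mitochondrial translation release factor, and MRX21. In the authors' table the same 10 probes correlated with ATO2 at -0.26 to 0.91. The 10 probes most like PUT4 all have a name and correlated at 0.94 to 0.99, and at 0.94 to 0.99 in the table as well. They were SNZ3 and SNZ2, near-identical genes of vitamin B6 synthesis, SFC1, MDH2, for the cytosolic malate dehydrogenase, FUM1, for fumarase, GUT1, for glycerol kinase, SUC2, for invertase, PEP12, of vacuolar sorting, and the subtelomeric ORFs YBL111C and YHR219W, whose families have near-identical copies, so that their probes can share signal. SFC1 was in both sets, with a mean of 3.31 in V5.TM6*P and -1.08 in V5.

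With the strain means removed, 1 of the 5 probes most like each gene has a name. For PUT4 this was SNZ3, at 0.84 from the scanner values and 0.82 in the table. SNZ3 averaged 2.31 ± 0.23 in V5.TM6*P and 0.83 ± 0.28 in V5 (SD, n = 6 each). For ATO2 it was HPA3, for an acetyltransferase, at 0.86 and 0.038 in the table, and the 5 probes together reached -0.43 to 0.038 there.

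The other genes of the pathways around the 2 transporters were taken from 5 lists, 71 genes in all, of which 24 could be matched to a probe. A gene could be named only if the study's gene tables hold it, and these tables were made from the same strain comparison. The strain counts and strain p-values below therefore reuse the contrast that admitted the genes, and are no independent evidence of a direction. The shares of all probes beside them are background, and not a like base for genes named in this way. Over all probes 6.79% were called higher and 5.40% lower in V5.TM6*P (limma, adjusted p under 0.05), and the median log2 difference was -0.054.

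Of the 3 listed genes of proline use, PUT1 and PUT2, for the mitochondrial enzymes that follow Put4, could be matched to a probe. From the scanner values 0 of the 2 were called. PUT1 averaged -0.57 ± 0.31 in V5.TM6*P and -2.31 ± 1.80 in V5 (SD, n = 6 each), a log2 difference of 1.74 (limma adjusted p = 0.116). PUT2 averaged 2.91 ± 0.50 in V5.TM6*P and 2.35 ± 0.47 in V5 (SD, n = 6 each), a difference of 0.56 (limma adjusted p = 0.207). In the authors' table both were called higher, by 1.03 (limma adjusted p = 0.0125) for PUT1 and 0.69 (limma adjusted p = 0.0308) for PUT2. With spots marked as empty treated as missing, 1 of the 2 was called higher. The call in the table was largely set in advance, since both genes could be named only because the study listed them as changed. From the scanner values that call was not reached, so it differed between the sources and says nothing independent of proline use. PUT1 had the lowest adjusted p for a V5 slope among all 24 genes, 0.0743 in limma, with a slope of 1.26 per 10 g/L. It was dim in V5, with a lowest sample of -4.73, and the part of dim spots in this slope was not tested.

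Of the 5 listed genes of the ammonium and ATO family, only MEP1, for an ammonium permease, could be matched to a probe. It rose in V5.TM6*P, with a mean of 2.07 ± 0.48 against 1.18 ± 0.48 in V5 (SD, n = 6 each), a log2 difference of 0.89 (limma adjusted p = 0.0457). Its groups overlapped, and it was not called without the 2 lowest glucose points, where the difference was 0.54, nor with the sampling point as a block. The other carriers of the ATO family, ADY2 and ATO3, had no matched probe.

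Of the 26 listed genes for amino acid carriers and their sensor, 8 could be matched to a probe. Most of these were lower in V5.TM6*P, opposite to PUT4. Among the 8, 5 were called lower (4 of the 7 carriers, and SSY5) and 2 higher in V5.TM6*P, with a median log2 difference of -0.72. BAP3, a permease for branched-chain amino acids, had the lowest difference at -1.69 (limma adjusted p = 0.00499), with a mean of -1.54 in V5.TM6*P and 0.14 in V5. GNP1, the glutamine permease, fell by 1.33 on the log2 scale (limma adjusted p = 0.00280) and was the only one of the 8 with every V5.TM6*P sample below every V5 sample, as 3.24% of all probes were. MUP3, a methionine permease, fell by 1.04, AVT1, a vacuolar carrier, by 0.70, and SSY5, a protease of the amino acid sensor, by 0.75. MMP1, the S-methylmethionine permease, rose by 1.36 and AVT3, another vacuolar carrier, by 0.66. The difference of DIP5, the carrier of acidic amino acids, was -0.41 (limma adjusted p = 0.321). Without the 2 lowest glucose points, 2 were called lower and 2 higher.

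Of the 22 listed genes for use of other nitrogen sources only DAL2 and UGA2 could be matched to a probe, and both rose in V5.TM6*P. The rest of that list was not read. DAL2, for allantoicase, averaged 1.77 ± 0.17 in V5.TM6*P and 0.14 ± 0.40 in V5 (SD, n = 6 each), a difference of 1.63 (limma adjusted p = 0.000242). UGA2, for succinate semialdehyde dehydrogenase of the GABA pathway, averaged 2.10 ± 0.32 in V5.TM6*P and 0.79 ± 0.39 in V5 (SD, n = 6 each), a difference of 1.31 (limma adjusted p = 0.00171). For either gene the lowest V5.TM6*P sample exceeded the highest V5 sample.

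Of the 15 listed genes of growth without glucose, 11 could be matched to a probe, and most of these rose in V5.TM6*P. The rest of that list was not read. Among the 11, 9 were called higher in V5.TM6*P and 0 lower, with a median difference of 1.89. Of the 11, 7 had every V5.TM6*P sample above every V5 sample, as 4.83% of all probes did. SFC1 rose by 4.38 and JEN1, for the lactate and pyruvate carrier, by 3.69. FBP1 rose by 3.03 and PCK1, for the gluconeogenic carboxykinase, by 2.42. IDP2, MDH2 and MLS1, of the cytosolic NADPH supply and the glyoxylate cycle, rose by 2.02, 1.89 and 1.70. CRC1, for a mitochondrial carnitine carrier, rose by 1.31 and CAT2, for carnitine acetyltransferase, by 1.28. The differences of ICL1, for isocitrate lyase, and CAT8, the activator of this gene group, were 0.32 (limma adjusted p = 0.312) and 0.44 (limma adjusted p = 0.662). In the authors' table the difference of CAT8 was -0.31 (limma adjusted p = 0.645), with the opposite sign. The lowest V5 samples were -5.02 for FBP1, -4.42 for JEN1 and -4.64 for CAT8. In those of JEN1 and CAT8, 1 of the 2 arrays was at the floor of 0.1. The part of dim V5 spots in these differences was not tested. The ATO2 difference of 3.07 and the PUT4 difference of 2.70 lay within the range of the 11 matched genes of this list, 0.32 to 4.38. Nothing is read from this, since the strain contrast chose both genes and the list could be named only through the same contrast. None of the 24 genes had a called glucose slope in either strain or a called difference of slopes in limma, with lowest adjusted p of 0.484 for V5.TM6*P, 0.0743 for V5 and 0.449 for the difference.

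**Figure D4:**
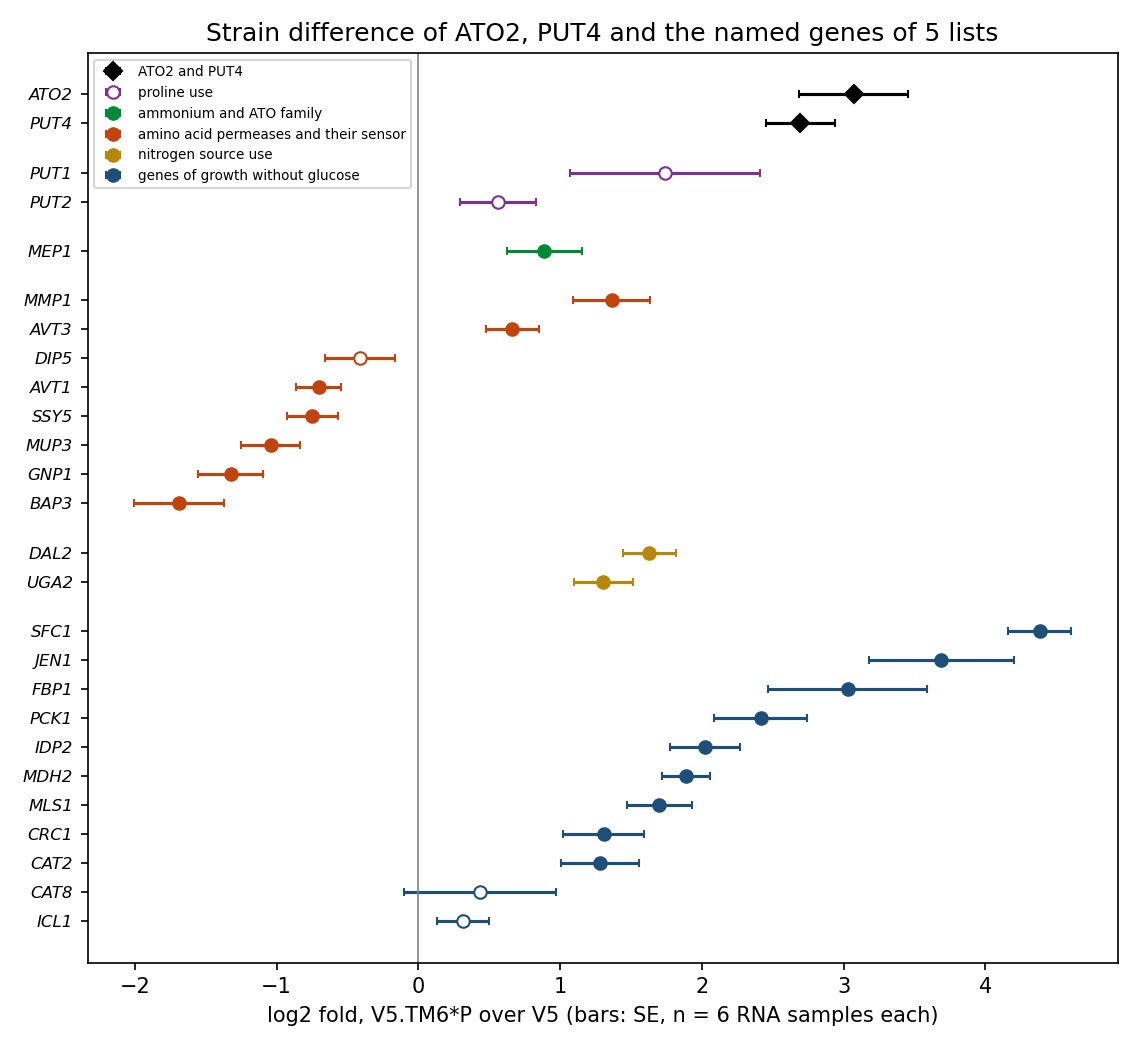
Log2 difference, V5.TM6*P over V5, of ATO2 and PUT4 (diamonds) and of the 24 named genes of 5 lists (circles), with SE bars from limma (n = 6 RNA samples each). Filled circles passed an adjusted p of 0.05 and open circles did not, and for ATO2 and PUT4 no test is given. BAP3 is lowest at -1.69 and SFC1 highest at 4.38.

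The size of the difference of ATO2 and PUT4 depended on how the background was treated, since the V5 spots lie close to it. Without background subtraction the log2 difference was 1.25 for ATO2 and 1.33 for PUT4. With the normexp background model at an offset of 50, which shrinks dim signals, and quantile normalization, it was 0.75 for ATO2 and 0.76 for PUT4. Leaving out each RNA sample in turn gave 2.76 to 3.28 for ATO2 and 2.55 to 2.84 for PUT4. Without the 3 arrays taken as another print lot the values were 3.16 for ATO2 and 2.65 for PUT4. The direction was kept under all 26 alternatives for both genes, which follows in part from how they were chosen.

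**Figure D5:**
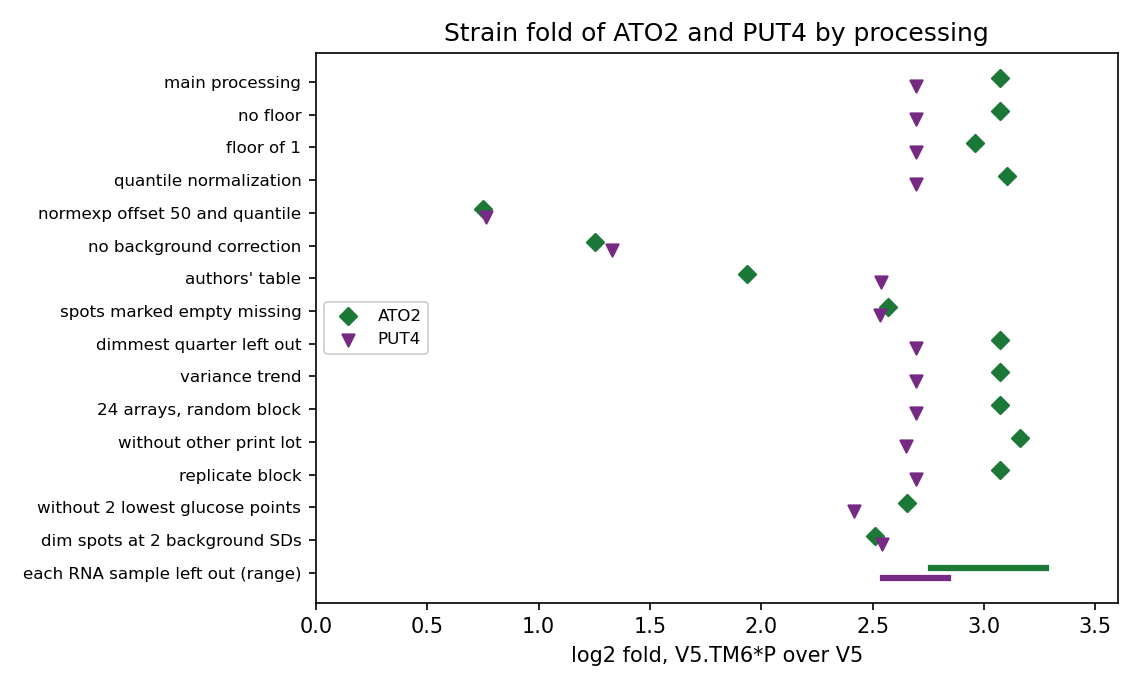
Log2 difference, V5.TM6*P over V5, of ATO2 (diamonds) and PUT4 (triangles) under each processing alternative, with the range over the 12 left-out RNA samples as bars. The values lie between 0.75 and 3.28, and the lowest come from the 2 alternatives without plain background subtraction.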

How the data were processed

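The scanner files hold, per the file headers, the median intensity of each spot and of its background on a linear scale, measured by the authors with ImaGene on phosphor screens, and a flag for empty spots. A table deposited by the authors holds background-subtracted intensity values, scaled in a way not given in the sources used here. Net intensities (spot minus background median) were raised to at least 0.1, which changed 1.49% of the scanner values and 5.04% of the table, and put on a log2 scale. Repeated spots, which 1147 of 6330 probes have, were averaged, each array was centred on its median over probes, and arrays of the same RNA were averaged. Genes were named by matching strain ratios from the table, and the print order, to the study's gene tables (1050 of 6330 probes named). ATO2 and PUT4 each matched 1 probe by value, at a place in the print order between YNL336W and YNR007C for ATO2 and between YOR341W and YOR354C for PUT4. Symbols are from RefSeq's R64 annotation.

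Strains and glucose slopes were tested with limma 3.58.1 in R 4.3.3 (statmod 1.5.0 for the 24-array fit), with Benjamini-Hochberg adjustment over all probes. Python 3.11.15 with numpy 2.4.6, pandas 2.3.3 and matplotlib 3.10.9 did the rest. Both fits were run on simulated data, and their power to find slopes is not reported here. A step in the order of levels was set against the SD between the arrays of a sample. The genes named are ATO2, PUT4, every nameable gene of the 5 lists, the 10 and 5 probes most like each gene over all samples and within strains, HXT4, and YPR126C, which was singled out after its values were seen. The genes and lists were chosen with earlier results of these data known. Alternatives changed the floor, background, normalization, source, variance model, blocks and samples, and 1, in which dim spots were raised to 2 background SDs, was added after seeing the data.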

Additional observations from a re-analysis of the deposited data

Results flagged for a closer look

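Of the 54 sets of 6 samples checked (27 genes in each strain), 4 held a sample apart from the others, and chance gives about 1 in 20. None was a set of ATO2 or PUT4. PCK1 in V5 was -2.69 at 10.5 g/L, against -1.29 to -0.85 in the other V5 samples, and its spot was marked as empty on both arrays of that sample. JEN1 in V5 was -4.42 at 35.0 g/L, against -1.98 to -0.70 in the others, with -7.65 and -1.20 on its 2 arrays and 1 of them marked as empty. CAT8 in V5 was -4.64 at 7.4 g/L, against -1.88 to -1.14, with -2.03 and -7.25 on its arrays and 1 marked as empty. CAT2 in V5.TM6*P was -1.11 at 34.8 g/L, against -0.20 to 0.21, with none marked. The JEN1 spot on the first of these arrays was at -0.12 background SDs and the CAT8 spot on the second at -0.80. Both were below background, so -7.65 and -7.25 are the floor of 0.1 and not measured levels. The part of the other dim spots in these values was not tested.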

How the results depend on the processing

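The log2 difference of ATO2 between the strains, 3.07, was 0.75 with normexp and quantile normalization, 1.25 without background correction and 1.94 in the authors' table, and that of PUT4, 2.70, was 0.76 and 1.33 under the first 2 of these. The other alternatives moved neither by more than 1 SD. No slope of ATO2 or PUT4 was called under any alternative. Signs of uncalled slopes (log2 per 10 g/L) turned for ATO2 in the authors' table (V5 slope -0.25, difference of slopes 0.12) and for PUT4 in the table (V5 slope -0.15, difference 0.24) and without the 2 lowest glucose points (difference 0.46). The V5.TM6*P slope of PUT4, 0.0045, was -0.022 with quantile normalization, -0.018 with normexp and -0.056 without the arrays taken as another print lot. It ranged from -0.14 to 0.13 with each sample left out. The same range was 0.23 to 0.78 for the V5 slope of ATO2 and 0.070 to 0.35 for that of PUT4. Over all probes, 342 were called lower in V5.TM6*P. This count was 539 with normexp, 549 with all 24 arrays and a random block, 204 with the sampling point as a block, 174 without the 2 lowest glucose points, and 227 to 327 with each sample left out, the lowest without V5 at 24.4 g/L. Called slopes in V5, 1 in all, numbered 151 with normexp, 140 with 24 arrays, 76 with a variance trend, 35 without background correction, 34 without the dimmest probes, and 0 to 10 otherwise, those in V5.TM6*P 0 to 3 and those of the difference 0 to 10.

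The samples share sampling-point numbers, but same-numbered samples deviated together at correlations of only 0.020 to 0.053, so the numbers were not taken as pairs, although 5 of 6 V5.TM6*P samples correlated best with their own number. With the block the strain differences of ATO2 and PUT4 stayed at 3.07 and 2.70, the differences of slopes were -0.70 (limma adjusted p = 0.673) and -0.13 (limma adjusted p = 0.935), and 302 probes were called higher against 430 without it. Signal over background limits what can be said of both genes in V5, and the number of arrays limits the rest.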
